A study of Mus musculus with 8 samples.

Results

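The genes described here encode the glutathione, peroxiredoxin and thioredoxin systems of mouse granulosa cells, the somatic cells that surround the oocyte. They were chosen by name from the deposited expression table. A gene was taken if its symbol was that of a cytosolic glutathione S-transferase (GST) of any class, a microsomal GST, a glutathione peroxidase, a peroxiredoxin or a gene beginning with Txn. Gclc, Gclm, Gss, Gsr, Sod1, Cat, Nqo1, Hmox1 and Nfe2l2 were added by symbol, and Sod2 was not analysed here. After 2 pseudogenes were dropped, 54 of the 11783 listed genes remained, in 12 families. The rule used names only and no measured value, but it was chosen with earlier results of these data known. The 54 are called antioxidant genes below for short, though the names also take in genes with other roles, such as the spliceosomal Txnl4a and Txnl4b.

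RNA was sequenced from granulosa cells that had been dissociated from C57BL/6 mouse ovaries. The cells came from animals aged 1 day (postnatal day 1, PND1, 4 libraries) or 4 days (postnatal day 4, PND4, 4 libraries). The labels name no treatment or genetic change at either age. Levels are FPKM, fragment numbers scaled to transcript length and library size, so they are comparable between genes of different length. The comparison asks how the level of each transcript differed between the ages. Separate animals, litters or cultures are not named for the 4 libraries of an age, so a p-value measures the spread between these libraries, which may be technical. In bulk RNA, a lower value from fewer cells of a type and one from less RNA per cell cannot be told apart.

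Cells keep reactive oxygen species and oxidised thiols in check through linked systems. Glutathione is a cysteine-containing tripeptide: it is made by glutamate-cysteine ligase and glutathione synthetase, used by glutathione peroxidases and transferases, and returned to its reduced form by glutathione reductase. Peroxiredoxins reduce peroxides through a reactive cysteine and are in turn reduced mostly by thioredoxin, which thioredoxin reductase recharges with electrons from NADPH. The transcription factor NRF2, encoded by Nfe2l2, binds antioxidant response elements and drives many of these genes. In the ovary, granulosa cells are known as a source of glutathione for the oocyte.

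Total FPKM over the listed genes lay between 443333 and 505035 per library, and read depth is unknown. The number of genes listed at exactly 0 ran from 222 to 1234. It was highest in PND1 replicate 1 (1234) and PND4 replicate 1 (1097), followed by PND1 replicate 2 (858). Mitochondrially encoded genes held 26.6% to 30.6% of the FPKM at PND1 and 22.4% to 29.4% at PND4, with 29.4% in PND4 replicate 1. All 10 granulosa markers examined were above 0 in every library. Their sum ran from 663 to 959 FPKM at PND1 and from 699.9 to 930.1 FPKM at PND4. Krt18 and Krt19 were the most abundant of the 10 and weighed most in that sum (means of 493 and 123 FPKM over the 8 libraries). Wnt4 was lower at PND4 without overlap, at 22.0 ± 2.71 and 15.1 ± 2.43 FPKM (limma, adjusted p = 0.743, unadjusted p = 0.0143). No other granulosa marker had an unadjusted p under 0.05. Of all genes tested, 4.06% were higher and 1.84% lower at such a p. Oocyte markers (11 of 12 listed) summed to between 13.5 and 86.9 FPKM at PND1 and between 19.1 and 205 FPKM at PND4, the highest in PND4 replicate 3. For 7 of those 11 the value was 0 in at least 1 library: Dazl, Ddx4, Nobox, Figla, Zp2, Ooep and Sohlh1. At an unadjusted p under 0.05 in limma, Zp3 was higher at PND4 (4.88 ± 5.53 and 24.6 ± 24.5 FPKM). Figla (3.96 ± 2.84 and 0.377 ± 0.593 FPKM) and Dazl (3.32 ± 1.33 and 0.913 ± 0.929 FPKM) were lower at such a p. Erythroid markers (3 of 10 listed, all of them globin genes) summed to 17.1 to 48.9 FPKM at PND1 and 0.268 to 11.4 FPKM at PND4. The ages did not overlap, and all 3 were lower at an unadjusted p under 0.05 in limma. Ovarian stroma markers (10 of 10) summed to 198 to 222 FPKM at PND1 and 212 to 275 FPKM at PND4. Of these 10, 8 had a difference above 0, where 60.3% of all genes had. At an unadjusted p under 0.05 in limma 3 were higher at PND4, where 4.06% of all genes were. They were Dcn at 19.9 ± 4.55 and 36.1 ± 7.12 FPKM (no overlap), Tcf21 and Col1a1. Tcf21 had 8.81 ± 5.19 and 21.7 ± 7.80 FPKM and Col1a1 20.001 ± 4.21 and 27.7 ± 5.68 FPKM. Without overlap, 3.16% of all genes were higher and 1.08% lower. Surface epithelium markers (5 of 6) summed to 313 to 584 FPKM and 374 to 562 FPKM. Macrophage markers (5 of 9, of which 4 were at 0 in some library) summed to 9.27 to 29.8 FPKM and 2.92 to 59.8 FPKM. Of 8 endothelial markers only Esam was listed, at 1.10 to 9.05 FPKM and 0.961 to 6.96 FPKM. The part of these other cells in the levels given below was not tested.

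The antioxidant genes were abundant in neonatal granulosa cells. Of the 54 genes, 40 had a mean over 10 FPKM across the 8 libraries and 12 had a mean over 100 FPKM: Hmox1, Nqo1, Gsta4, Gpx4, Gpx8, Gstm1, Prdx1, Prdx6, Gstp1, Sod1, Txn1 and Txnrd1. Among all genes tested, 4.83% had a mean over 100 FPKM. The median antioxidant gene stood at the 85.5 percentile of mean expression among the genes tested. Their summed level was 3534 ± 632 FPKM at PND1 and 3978 ± 440.2 FPKM at PND4 (SD, n = 4), or 0.728% ± 0.118 and 0.867% ± 0.125 of the FPKM of all listed genes. Over all libraries the thioredoxin system held 18.7% of that sum, the peroxiredoxins 15.8% and NRF2 with Nqo1 and Hmox1 14.3%. Microsomal GSTs held 1.67%, and the omega, theta, zeta and kappa GSTs together 1.09%.

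**Figure D1:**
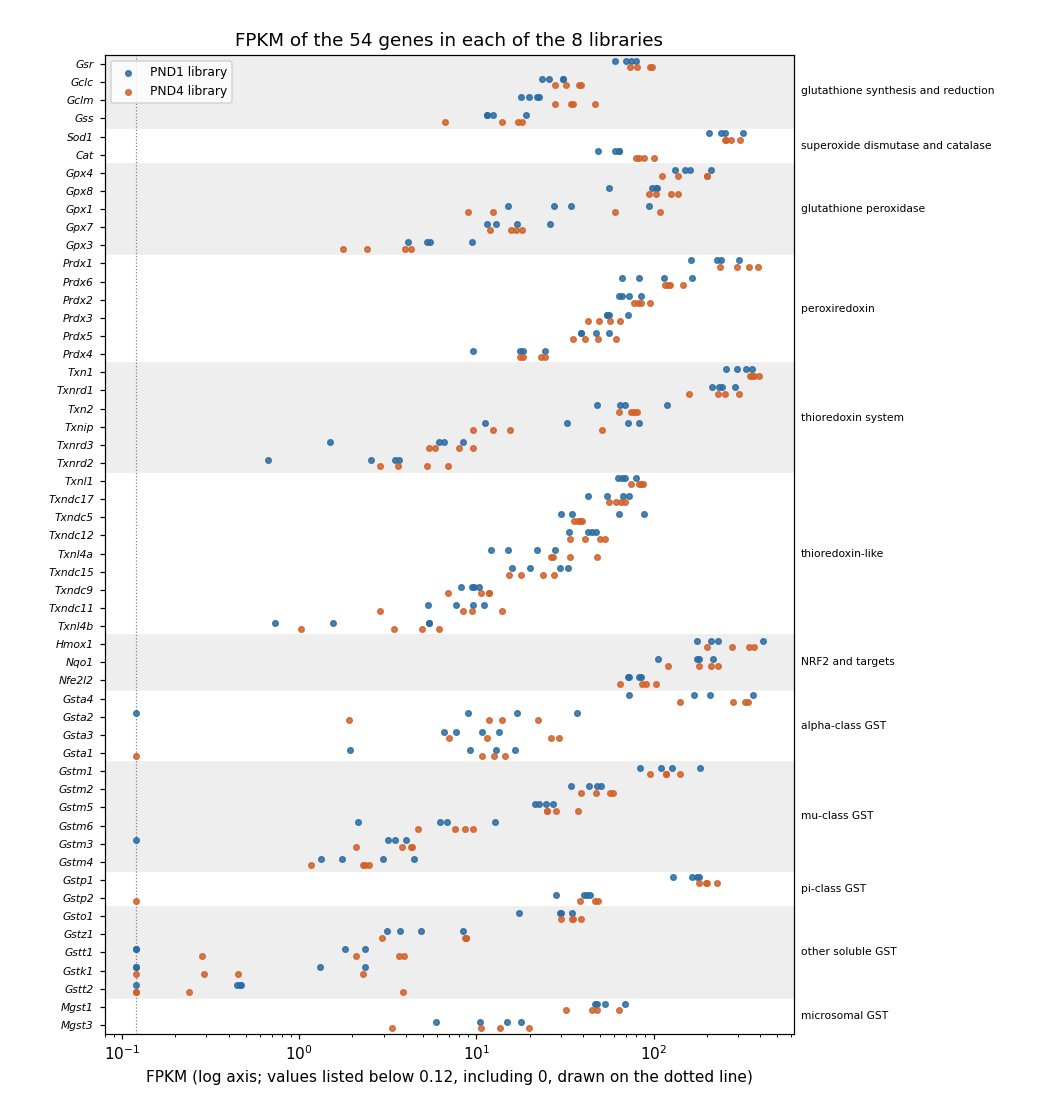
Expression of the 54 antioxidant genes in each of the 8 libraries, as FPKM on a log axis, grouped by family; each point is 1 library and the colour marks the age, and values below the dotted line's level, 0 included, are drawn on it. Txn1, Prdx1 and Hmox1 lie at the top of the range, while Gstk1 and Gstt2 lie at the bottom.

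No antioxidant gene passed the test between PND1 and PND4. Genes that reached 1 FPKM in 4 or more libraries were tested with limma on log2(FPKM + 1), a scale on which differences of low genes are understated, and p-values were adjusted over all 10756 genes tested. Of the 54 genes 52 were tested, and 0 were called at an adjusted p under 0.05, where 0.0093% of all genes were called (1 gene). The smallest adjusted p of the 52 was 0.556. At an unadjusted p under 0.05, 5 of the 52 were higher at PND4 (Cat, Gclm, Txnl4a, Gstp1 and Prdx1), where 4.06% of all genes were. On the lower side there was 1 (Gpx3), where 1.84% of all genes were. The count on the higher side moved with single libraries. It was 10 without PND1 replicate 1 and 9 without PND4 replicate 1, where 3.51% and 5.03% of all genes were, and 3 without PND4 replicate 3 or replicate 4, where 3.41% and 3.07% were. The libraries of the ages did not overlap for Cat and Gclm, both higher at PND4, where 3.16% of all genes were higher without overlap. No antioxidant gene was lower without overlap, where 1.08% of all genes were.

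The log2 difference, PND4 minus PND1, was above 0 for 35 and below 0 for 17 of the 52 (67.3% above), with a median of 0.21. Over all genes tested 60.3% were above 0 and the median was 0.08. Under median-of-ratios or upper-quartile scaling 32 of the 52 were above 0. Without PND1 replicate 2 the medians were 0.09 for the antioxidant genes and 0.07 for all genes, and without both libraries numbered 1 as well they were 0.19 and 0.04. The median half-width of the 95% interval of a gene's difference was 0.52 among the 52 and 0.65 among all genes, before any adjustment, and differences above 0.52 such as those of Cat, Gclm and Txnl4a (0.57, 0.76 and 0.81) did not pass the adjusted threshold. In the authors' deposited table of the comparison, 4 of the 54 genes had a p under 0.05 (Cat, Gclm, Txnl4a and Gpx3), where 6.55% of all genes did, and 0 had a q under 0.05, where 0.0% of all genes did. The smallest q of an antioxidant gene in the authors' deposited table was 0.613, for Cat.

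**Figure D2:**
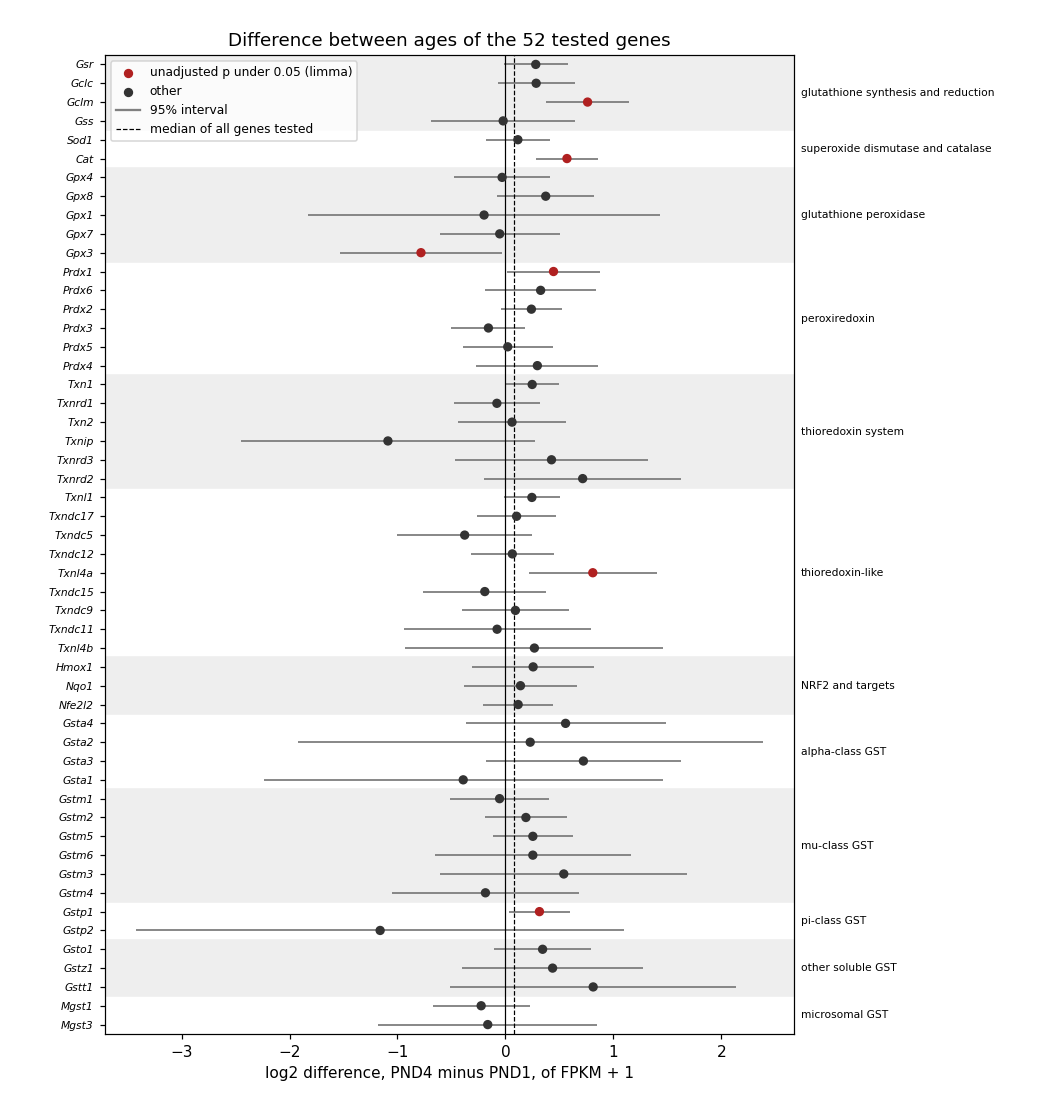
Log2 difference (PND4 minus PND1, log2(FPKM + 1) scale) of each of the 52 tested genes by family; points are limma estimates, bars their 95% intervals, red marks an unadjusted p under 0.05, and the dashed line is the median over all genes tested (0.08). Most intervals cross 0, and Cat, Gclm and Txnl4a are the red points farthest from it among those with higher values at PND4.

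Glutathione is made in a pair of steps, and among its 4 synthesis and reduction genes the largest difference between the ages was in the modifier subunit of the enzyme for the first step. Gclm (ENSMUSG00000028124, chr3:122245557-122270732, plus strand, GRCm38) encodes this regulatory subunit of glutamate-cysteine ligase, which raises the activity of the catalytic subunit. Its level was 21.9, 22.5, 19.7 and 17.97 FPKM in PND1 replicates 1 to 4 and 35.0, 46.5, 34.4 and 27.8 FPKM in PND4 replicates 1 to 4. Every PND4 library lay above every PND1 library. The means were 20.5 ± 2.09 and 36.0 ± 7.77 FPKM (SD, n = 4), a log2 difference of 0.76 (SE 0.18, 95% interval 0.38 to 1.15; limma, adjusted p = 0.556, unadjusted p = 0.00116). Exons of 2 other genes overlap those of Gclm, most of all Gm17494 on the opposite strand, with 296 of the 6291 exonic bases of Gclm. The sources used here do not give the strand setting of the counting, so reads of that stretch cannot be assigned with certainty. Of the stretches of 31 bases of Gclm, 5.6% occur in other genes, most of all in Ppia (3.6%).

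Gclc, the catalytic subunit, had 30.9, 23.6, 30.7 and 25.8 FPKM at PND1 and 27.7, 38.8, 38.1 and 31.9 FPKM at PND4. The ages overlapped, with a log2 difference of 0.28 (limma, adjusted p = 0.805, unadjusted p = 0.107). The level of Gclm over that of Gclc was 0.751 ± 0.139 at PND1 (range 0.642 to 0.954) and 1.06 ± 0.201 at PND4 (range 0.873 to 1.27), so the ranges overlapped. Gss, which adds glycine to complete the tripeptide, had 19.0, 11.5, 12.4 and 11.5 FPKM at PND1 and 6.64, 17.3, 18.1 and 13.9 FPKM at PND4. Its highest and lowest values were both in libraries numbered 1, and its log2 difference was -0.02 (unadjusted p = 0.946, adjusted p = 0.990). Gsr, glutathione reductase, had 69.9, 60.5, 79.8 and 74.7 FPKM at PND1 and 73.6, 80.9, 95.5 and 97.6 FPKM at PND4, the most abundant of the 4. Its ages overlapped (log2 difference 0.28; limma, adjusted p = 0.805, unadjusted p = 0.0618). Summed over the 4 genes, the level was 133 ± 11.6 FPKM at PND1 and 171 ± 19.8 FPKM at PND4, from 118 to 142.7 FPKM in the PND1 libraries and from 142.9 to 186 FPKM in those of PND4. PND1 replicate 3 and PND4 replicate 1 nearly met.

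Catalase (Cat, ENSMUSG00000027187, chr2:103453849-103485160, minus strand, GRCm38), the peroxisomal enzyme that splits hydrogen peroxide, had the smallest p of the antioxidant genes. It had 60.7, 48.7, 63.5 and 63.6 FPKM at PND1 and 79.6, 83.3, 88.7 and 101 FPKM at PND4. All 4 PND4 libraries lay above all 4 of PND1, with PND1 replicate 2 the lowest. The means were 59.1 ± 7.06 and 88.1 ± 9.34 FPKM (SD, n = 4), a log2 difference of 0.57 (SE 0.13, 95% interval 0.28 to 0.86; limma, adjusted p = 0.556, unadjusted p = 0.00111). No stretch of 31 bases of Cat occurs in another annotated gene. Sod1, the cytosolic superoxide dismutase that supplies hydrogen peroxide from superoxide, had 318, 206, 252 and 239 FPKM at PND1 and 258, 254, 272 and 306 FPKM at PND4. Its highest and lowest libraries were both of PND1, and the log2 difference was 0.12 (limma, adjusted p = 0.891, unadjusted p = 0.408), or 0.02 without PND1 replicate 2 and 0.23 without PND1 replicate 1.

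**Figure D3:**
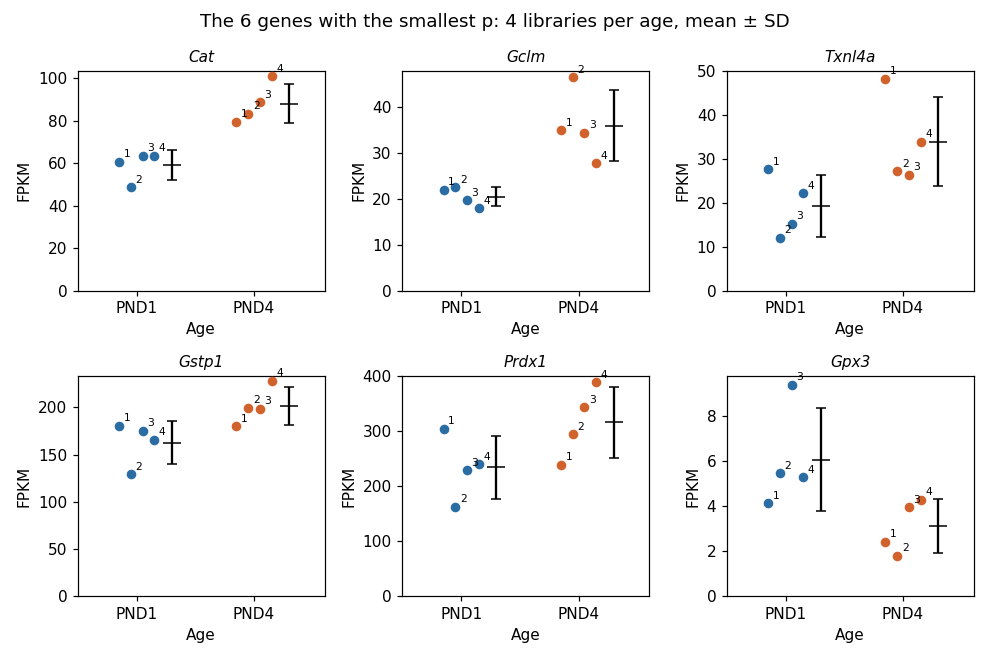
FPKM of the 6 antioxidant genes with the smallest unadjusted p (Cat, Gclm, Txnl4a, Gstp1, Prdx1 and Gpx3) in the 4 PND1 and 4 PND4 libraries, with the mean and SD of each age; each axis starts at 0. The ages do not overlap for Cat and Gclm, and they do for the other 4.

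Glutathione peroxidases use glutathione to reduce peroxides, and several carry selenocysteine, which is written into the protein at an in-frame TGA codon that otherwise ends translation. The GENCODE M21 annotation on GRCm38 marks such a codon in 6 of the antioxidant genes: Gpx1, Gpx3, Gpx4, Txnrd1, Txnrd2 and Txnrd3. The coding sequence around it is shown because its place differs between the families. It lies within the coding sequence of the peroxidases, at codon 47 of 201 in Gpx1, 73 of 226 in Gpx3 and 129 of 253 in Gpx4, and is the next to last codon of each thioredoxin reductase (498 of 499, 526 of 527 and 614 of 615). These numbers are those of a single annotated transcript per gene. Gpx4 has 7 such transcripts, and the codon number can differ between them. The sequences below read 5′ to 3′ on the plus strand, and the capitals mark the selenocysteine codon, at chr9:108339451-108339453, chr11:54907256-54907258, chr10:80054737-80054739, chr10:82896037-82896039, chr16:18477772-18477774 and chr6:89674789-89674791 in the order given.
Gpx1: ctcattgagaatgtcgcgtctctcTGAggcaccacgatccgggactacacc
Gpx3: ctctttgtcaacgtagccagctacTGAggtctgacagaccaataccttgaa
Gpx4: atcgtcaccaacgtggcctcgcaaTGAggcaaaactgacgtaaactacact
Txnrd1: ggagacatcctccagtctggctgcTGAggt
Txnrd2: ctggagcctactgtgactggttgcTGAggc
Txnrd3: ctggacattactcagaaaggctgcTGAggc

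Of the 5 glutathione peroxidases, 4 had a log2 difference below 0, with a median of -0.05. Gpx3 (chr11:54902453-54910377), the secreted peroxidase, had 4.12, 5.46, 9.40 and 5.28 FPKM at PND1 and 2.41, 1.78, 3.94 and 4.27 FPKM at PND4. The ages overlapped only through PND1 replicate 1 and PND4 replicate 4. The means were 6.07 ± 2.30 and 3.10 ± 1.199 FPKM (SD, n = 4), a log2 difference of -0.78 (SE 0.34, 95% interval -1.54 to -0.03; limma, adjusted p = 0.805, unadjusted p = 0.0432).

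Gpx4, the peroxidase that reduces lipid hydroperoxides in membranes, was the most abundant of the family. It had 210.3, 149.8, 133 and 160.1 FPKM at PND1 and 199, 112, 137 and 201 FPKM at PND4. The ages covered each other, with a log2 difference of -0.03 (95% interval -0.48 to 0.42; limma, adjusted p = 0.984, unadjusted p = 0.882). A processed copy, Gpx4-ps2, holds 38.7% of the 31-base stretches of Gpx4 and was itself listed at 73.1 ± 6.51 and 73.5 ± 19.3 FPKM. The level of Gpx4 over that of Gpx4-ps2 was 2.24 ± 0.446 at PND1 and 2.21 ± 0.141 at PND4. Reads of these 2 genes may have been split between them, so the level of each is uncertain.

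Gpx1, the most widespread cytosolic glutathione peroxidase, varied more between libraries of one age than between the ages. It had 94.4, 27.3, 15.2 and 34.4 FPKM at PND1 and 108, 12.4, 8.97 and 60.2 FPKM at PND4. Within each age the library numbered 1 was highest and that numbered 3 lowest, and the coefficient of variation over the 8 libraries was 85.2%, against a median of 27.3% for the antioxidant genes and 30.3% for all genes. The log2 difference was -0.20, with a 95% interval from -1.83 to 1.43 (limma, adjusted p = 0.972, unadjusted p = 0.794). The 3 libraries with the most Gpx1 (PND1 replicate 1, PND4 replicate 1 and PND4 replicate 4) were also the 3 with the most Gpx4. Gpx7 and Gpx8, which act in the endoplasmic reticulum, ranged from 11.5 to 25.96 FPKM and from 56.1 to 137 FPKM. Gpx8 was the 1 member of the family with a difference above 0 (0.37; limma, adjusted p = 0.805, unadjusted p = 0.0941), and that difference was 0.16 without PND1 replicate 1, its lowest library.

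Among the 6 peroxiredoxins, 5 had a difference above 0 (4 under either other scaling, where Prdx5 turned) and the median was 0.27. Prdx1 (ENSMUSG00000028691, chr4:116685544-116700822, plus strand), an abundant cytosolic peroxiredoxin, had 304, 162, 229 and 239.6 FPKM at PND1 and 239, 294, 343 and 389 FPKM at PND4. PND1 replicate 2 was the lowest of all 8, and PND1 replicate 1 lay above PND4 replicates 1 and 2. The means were 234 ± 58.1 and 316 ± 64.6 FPKM (SD, n = 4), a log2 difference of 0.45 (SE 0.19, 95% interval 0.02 to 0.87; limma, adjusted p = 0.805, unadjusted p = 0.0429). Without PND1 replicate 2 the difference was 0.28. Of the 31-base stretches of Prdx1, 15.2% occur in other genes, so part of its reads cannot be assigned with certainty.

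Prdx2, the other main cytosolic peroxiredoxin, had 63.9, 72.9, 66.6 and 84.97 FPKM at PND1 and 85.3, 77.2, 82.0 and 96.0 FPKM at PND4. The overlap of the ages came from PND1 replicate 4, and the log2 difference was 0.24 (limma, adjusted p = 0.805, unadjusted p = 0.0843). Prdx3, the mitochondrial peroxiredoxin, was the 1 member of the family below 0, at 59.2 ± 8.32 and 53.3 ± 9.48 FPKM (log2 difference -0.16; limma, adjusted p = 0.872, unadjusted p = 0.335). Prdx6, which is recharged by glutathione rather than thioredoxin, had 165, 66.2, 114 and 82.9 FPKM at PND1 and 116, 121, 125 and 147 FPKM at PND4. Its PND1 libraries spanned the PND4 libraries, with a log2 difference of 0.33 (limma, adjusted p = 0.835, unadjusted p = 0.191), or 0.13 without PND1 replicate 2 and 0.56 without PND1 replicate 1. Prdx4, of the endoplasmic reticulum, ranged from 9.60 to 24.5 FPKM, and Prdx5 from 35.0 to 61.4 FPKM. Their differences were 0.30 and 0.02.

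The thioredoxin system was led by its cytosolic pair, and 4 of its 6 genes were above 0 (3 under either other scaling). Txn1, thioredoxin itself, was the most abundant antioxidant gene, with 358, 258, 297 and 333 FPKM at PND1 and 351, 368, 359 and 393 FPKM at PND4. Of the PND1 libraries, only replicate 1 reached into the PND4 range. The means were 311 ± 43.9 and 368 ± 18.03 FPKM (SD, n = 4), a log2 difference of 0.25 (SE 0.11; limma, adjusted p = 0.805, unadjusted p = 0.0527), or 0.16 without PND1 replicate 2. Txnrd1, its reductase, had 289.8, 214, 235 and 243 FPKM at PND1 and 159, 305, 231 and 254 FPKM at PND4, and both extremes were of PND4 (log2 difference -0.08; limma, adjusted p = 0.950, unadjusted p = 0.669). The mitochondrial pair had Txn2 at 74.96 ± 30.6 and 74.3 ± 7.10 FPKM and Txnrd2 at 2.59 ± 1.38 and 4.69 ± 1.81 FPKM. Txnrd3, a reductase best known from testis, had 5.67 ± 2.96 and 7.20 ± 1.93 FPKM.

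Txnip, the protein that binds and inhibits thioredoxin, had the widest spread of the system. It had 11.1, 71.6, 83.2 and 32.5 FPKM at PND1 and 9.52, 51.4, 12.4 and 15.4 FPKM at PND4. PND1 replicate 1 lay with the low PND4 libraries, and PND4 replicate 2 lay with the high PND1 libraries. The means were 49.6 ± 33.6 and 22.2 ± 19.6 FPKM (SD, n = 4), a log2 difference of -1.09 whose 95% interval ran from -2.45 to 0.27 (limma, adjusted p = 0.805, unadjusted p = 0.106). It was -1.66 without PND1 replicate 1 and -0.73 without PND1 replicate 3. Txnip shares 606 of its 3123 exonic bases with Gm15441 on the opposite strand, and reads of that stretch cannot be assigned with certainty.

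The 9 thioredoxin-like genes hold a thioredoxin fold and act in the endoplasmic reticulum, the cytosol or, for the Txnl4 pair, the spliceosome. Their median difference was 0.09, with 6 above and 3 below 0 (5 and 4 under either other scaling). Txnl4a, the spliceosomal member with the third smallest p of the antioxidant genes, had 27.6, 12.04, 15.2 and 22.1 FPKM at PND1 and 48.2, 27.1, 26.4 and 33.8 FPKM at PND4. PND1 replicate 1 lay just above the 2 lowest PND4 libraries. The means were 19.2 ± 6.996 and 33.9 ± 10.1 FPKM (SD, n = 4), a log2 difference of 0.81 (SE 0.27, 95% interval 0.22 to 1.40; limma, adjusted p = 0.740, unadjusted p = 0.0120). It shares 457 of its 4507 exonic bases with Gm16286 on the same strand, and 15.3% of its 31-base stretches occur in other genes, so part of its reads cannot be assigned with certainty.

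Txnl1, a cytosolic thioredoxin-like protein bound to the proteasome, was the most abundant of the 9. It had 66.1, 80.1, 62.7 and 68.9 FPKM at PND1 and 74.3, 83.1, 86.9 and 84.9 FPKM at PND4. PND1 replicate 2 reached into the PND4 range, and the log2 difference was 0.25 (limma, adjusted p = 0.805, unadjusted p = 0.0616). Txndc5, a disulfide isomerase of the endoplasmic reticulum, had 63.4, 87.8, 34.8 and 30.2 FPKM at PND1 and 35.7 to 39.7 FPKM at PND4. Txndc9, Txndc11, Txndc12, Txndc15, Txndc17 and Txnl4b had differences from -0.19 to 0.27.

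NRF2 and the classical targets Nqo1 and Hmox1 were high at both ages. Nfe2l2 had 72.9, 72.0, 82.6 and 85.4 FPKM at PND1 and 64.3, 103, 90.8 and 85.8 FPKM at PND4, with both extremes at PND4 (log2 difference 0.12, or 0.03 without PND4 replicate 2; limma, adjusted p = 0.900, unadjusted p = 0.444). Nqo1, a quinone reductase, had 215, 106, 176 and 180.3 FPKM at PND1 and 121, 211, 180.4 and 232 FPKM at PND4. The lowest library was PND1 replicate 2 and the next was PND4 replicate 1, and the log2 difference was 0.14 (limma, adjusted p = 0.933, unadjusted p = 0.568). Hmox1, the heme oxygenase that degrades heme, had 414, 175, 209.9 and 231 FPKM at PND1 and 201, 348, 278 and 370.1 FPKM at PND4. PND1 replicate 1 was the highest and PND1 replicate 2 the lowest of the 8 (log2 difference 0.26, 95% interval -0.31 to 0.82; limma, adjusted p = 0.873, unadjusted p = 0.341). Its difference was 0.10 without PND1 replicate 2 and 0.51 without PND1 replicate 1.

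**Figure D4:**
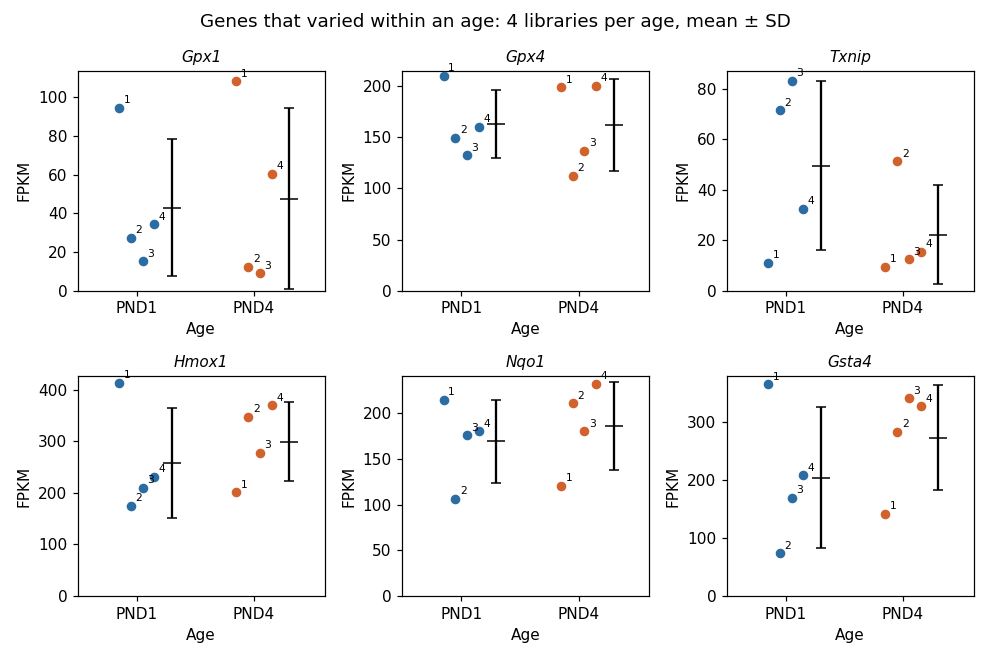
FPKM of Gpx1, Gpx4, Txnip, Hmox1, Nqo1 and Gsta4 in each of the 8 libraries, with the mean and SD of each age; each axis starts at 0. Gpx1 and Gpx4 are highest in the same 3 libraries, and Hmox1, Nqo1 and Gsta4 are lowest in PND1 replicate 2.

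The GSTs join glutathione to reactive compounds, and their classes differed widely in level. Alpha-class GSTs, typical of steroid-making and detoxifying tissue, were led by Gsta4, which handles lipid aldehydes such as 4-hydroxynonenal. Gsta4 had 364, 73.1, 169 and 208 FPKM at PND1 and 141, 282, 341 and 326 FPKM at PND4. The PND1 libraries held both the highest and the lowest value, and the log2 difference was 0.56 (95% interval -0.37 to 1.48; limma, adjusted p = 0.837, unadjusted p = 0.213). It was 0.14 without PND1 replicate 2 and 0.91 without PND1 replicate 1. Gsta1, Gsta2 and Gsta3 had means of 9.83, 14.1 and 14.1 FPKM over the 8 libraries. Gsta1 was listed at 0 in PND4 replicate 1 and Gsta2 at 0 in PND1 replicate 2, and an exact 0 in such a table can be a failed estimate. Of the 31-base stretches of Gsta1, 92.9% occur in other genes, and of those of Gsta2 60.7%, so their levels are uncertain.

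Pi-class GSTs comprised Gstp1 and Gstp2, neighbours on chromosome 19 (chr19:4035407-4037985 and chr19:4040285-4046023, both minus strand, GRCm38). Their coding sequences of 630 bases differ at 12 bases (98.1% identity) and share an identical run of 300 bases. The first 90 coding bases are shown, from the GENCODE M21 transcripts, because they hold 6 of the 12 differences, which the capitals mark.
Gstp1: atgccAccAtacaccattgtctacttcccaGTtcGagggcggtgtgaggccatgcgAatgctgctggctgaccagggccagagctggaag
Gstp2: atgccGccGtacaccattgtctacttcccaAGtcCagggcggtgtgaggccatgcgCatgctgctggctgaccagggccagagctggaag

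Gstp1 had 181, 129, 175 and 166 FPKM at PND1 and 180.1, 199.7, 199 and 228 FPKM at PND4. The ages overlapped by PND1 replicate 1 and PND4 replicate 1, which differed by less than 1 FPKM. The means were 163 ± 23.2 and 202 ± 19.9 FPKM (SD, n = 4), a log2 difference of 0.32 (SE 0.13, 95% interval 0.03 to 0.60; limma, adjusted p = 0.805, unadjusted p = 0.0316), or 0.21 without PND1 replicate 2. Gstp2 had 42.2, 28.3, 44.1 and 40.3 FPKM at PND1 and 38.6, 0, 48.8 and 46.8 FPKM at PND4, so its difference of -1.16 (unadjusted p = 0.283, adjusted p = 0.858) rested on the 0 of PND4 replicate 2 (0.22 without that library). With 54.8% of the 31-base stretches of Gstp2 present in Gstp1, the split of reads between the genes is uncertain. Their summed level was 201 ± 30.2 FPKM at PND1 and 235 ± 33.1 FPKM at PND4.

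Mu-class GSTs were led by Gstm1, with 182, 84.3, 127 and 111 FPKM at PND1 and 117, 117, 141 and 95.6 FPKM at PND4. The PND1 libraries spanned those of PND4 (log2 difference -0.05; limma, adjusted p = 0.973, unadjusted p = 0.800). Gstm2 had a mean of 47.2 FPKM, Gstm5 one of 26.4 FPKM, and Gstm3, Gstm4 and Gstm6 had 2.35 to 7.30 FPKM. The 6 genes had differences from -0.19 to 0.54. Of the 31-base stretches of Gstm1, Gstm2 and Gstm3, 28.8%, 12.2% and 37.7% occur in other genes, so their levels are uncertain as well.

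Gsto1, an omega-class GST with thiol transferase activity, had 34.8, 17.3, 29.5 and 30.0 FPKM at PND1 and 35.2, 34.7, 30.0 and 39.1 FPKM at PND4. The lowest library was PND1 replicate 2, and the log2 difference was 0.34 (limma, adjusted p = 0.807, unadjusted p = 0.122), or 0.14 without that library. Gstz1 and Gstt1 had differences of 0.44 and 0.81 at means of 6.14 and 1.76 FPKM, and Gstt1 was listed at 0 in 2 PND1 libraries. Gstk1 (0 to 2.36 FPKM) and Gstt2 (0 to 3.88 FPKM) were the 2 genes too low to test. Mgst1, the main microsomal GST, had 69.3, 53.4, 46.8 and 47.8 FPKM at PND1 and 44.9, 32.0, 47.8 and 63.5 FPKM at PND4, with overlapping ages (log2 difference -0.22, or -0.06 without PND4 replicate 2; limma, adjusted p = 0.859, unadjusted p = 0.295). Mgst3 ranged from 3.35 to 19.8 FPKM with a difference of -0.16.

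Several families shared their extremes in the same libraries, as the heat map of deviations from each gene's mean shows. PND1 replicate 2 was the lowest of the 8 libraries for 20 of the 52 genes (38.5%), where it was the lowest for 14.7% of all genes tested. Among them were Hmox1, Nqo1, Gsta4, Prdx1, Prdx6, Txn1, Gstp1, Gsto1, Gsr, Cat and Sod1, which come from 8 families. In that library the granulosa, surface epithelium and oocyte marker sums were the lowest of the 8 (663, 313 and 13.5 FPKM) and the erythroid sum was the highest (48.9 FPKM). The granulosa markers did not move together there. Krt18, Krt19 and Wt1 were at their lowest of the 8 libraries (378, 44.5 and 19.9 FPKM) and Kitl at its highest (90.8 FPKM). The other granulosa markers lay between their extremes. PND1 replicate 1 was the highest for 13 of the 52 (25%), where it was so for 11.4% of all genes. PND4 replicate 4 was the lowest for 0 of the 52, where it was so for 4.69% of all genes. These shares describe the libraries and were not tested.

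**Figure D5:**
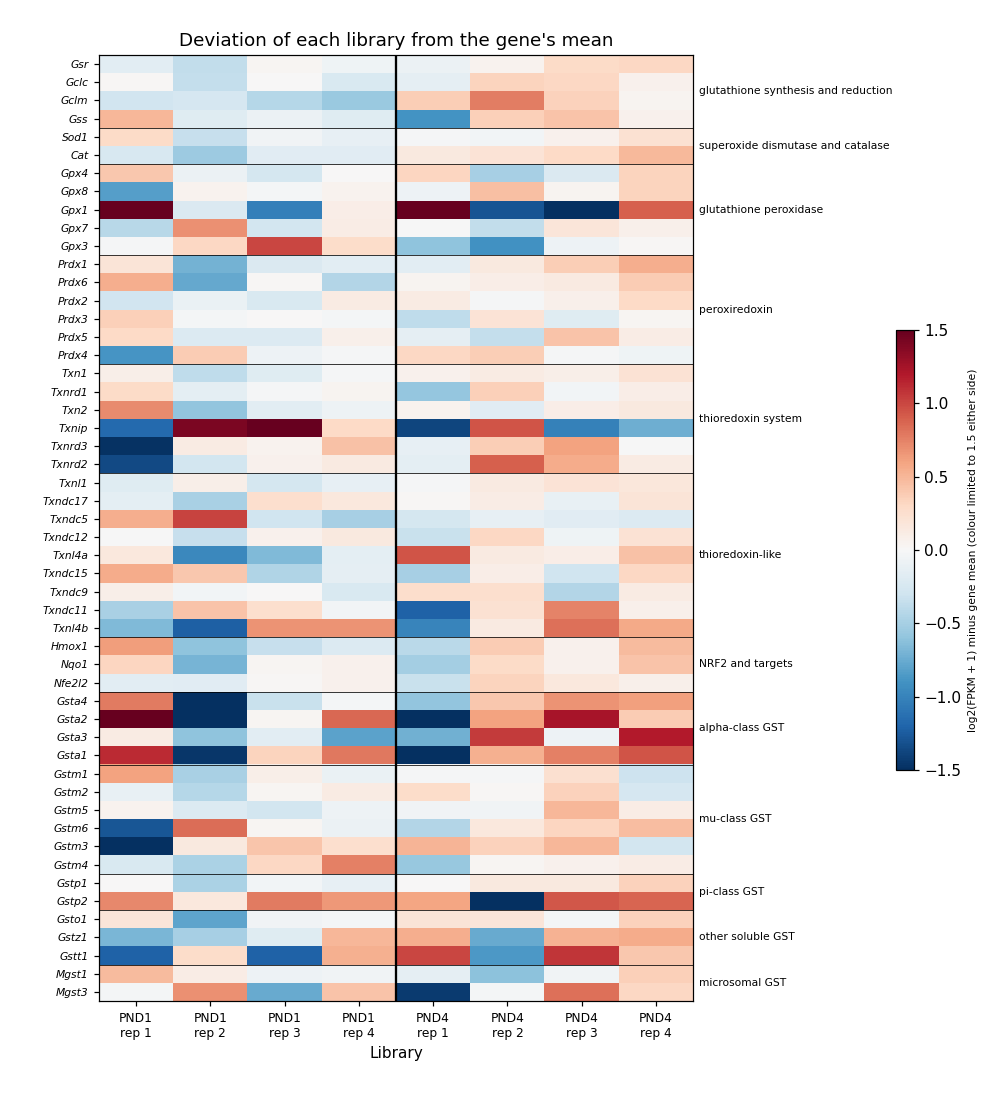
Heat map of log2(FPKM + 1) minus the gene's mean over the 8 libraries for the 52 tested genes, ordered by family, with colour limited to 1.5 either side; columns are libraries and the thick line separates the ages. The blue column of PND1 replicate 2 runs through most families. Gstp2, Gsta2, Gsta1, Gpx1 and Txnip show strong contrasts between libraries of the same age.

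The comparison was recomputed without both libraries numbered 1, which listed the most genes at 0, and then without PND1 replicate 2 as well. These alternatives were chosen after the data had been seen. PND1 replicate 1 was the highest library for 25% of the 52 genes and the lowest for 17.3% (11.4% and 30.1% of all genes). PND4 replicate 1 was the highest for 7.69% and the lowest for 19.2% (13.9% and 24.3%). Leaving out libraries picked in view of their values can by itself move the counts below, so they are a description only. Without both libraries numbered 1, 14 of the 52 genes (26.9%) were higher at PND4 at an unadjusted p under 0.05, where 4.97% of all genes were. On the lower side there were 2 (3.85%), Gpx3 and Txnip, where 2.32% of all genes were. The 14 were Hmox1, Nqo1, Gsta3, Gsta4, Gclc, Gclm, Gsr, Gss, Prdx1, Prdx6, Gstp1, Cat, Txn1 and Txnl4a. No antioxidant gene passed the adjusted threshold in that fit either (smallest adjusted p = 0.379). When PND1 replicate 2 was left out as well, so that 2 PND1 libraries were compared with 3 of PND4, 10 genes (19.2%) were higher, where 3.7% of all genes were. The 10 were Hmox1, Gsta3, Gsta4, Gclm, Prdx1, Prdx6, Gstp1, Cat, Txnl1 and Txnl4a, and the smallest adjusted p was 0.619. With PND1 replicate 2 alone left out, 4 genes (7.69%) were higher, where 3.51% of all genes were. Cat, Gclm and Txnl4a had an unadjusted p under 0.05 in each of the settings run.

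The promoters of the antioxidant genes were searched for the core of the antioxidant response element, TGACNNNGC, on both strands. The windows were those of RefSeq on GRCm38.p6, 250 bases before to 50 bases after a start site, and 46 of the 54 genes had one or more. These genes had 60 windows in all, and a gene was counted if any of its windows held the core. The core was found in 10 of the 46 (21.7%), against 17.2% of the 7968 genes of the expression table with a window and 14.0% of all 27025 RefSeq genes with one. The matches in Gclm and Prdx1 are shown because these genes were among the 6 with the smallest p, and those in Txnrd1 and Sod1 because these are among the most abundant of the 54. Each line is 60 bases on the plus strand, read 5′ to 3′, and the capitals mark the core, which lies in reverse orientation and begins 134, 133, 92 and 56 bases before the start. The stretch of Txnrd1 lies inside the annotated gene (chr10:82833951-82897712), at a start site within it. The windows are chr3:122245397-122245456, chr4:116685440-116685499, chr10:82859088-82859147 and chr16:90220680-90220739 in that order.
Gclm: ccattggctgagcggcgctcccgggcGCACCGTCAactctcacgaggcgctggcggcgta
Prdx1: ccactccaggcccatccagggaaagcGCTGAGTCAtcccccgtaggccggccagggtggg
Txnrd1: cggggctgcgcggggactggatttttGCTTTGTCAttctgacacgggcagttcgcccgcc
Sod1: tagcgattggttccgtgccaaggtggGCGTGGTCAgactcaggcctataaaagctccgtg

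A match is a description of these letters and not a bound site. The other 6 genes with a match were Nfe2l2, Gsta3, Gstm5, Mgst1, Txndc5 and Txndc11. Among genes with a match, Gclm, Prdx1 and Gsta3 had differences of 0.76, 0.45 and 0.72, and Txnrd1, Sod1 and Mgst1 had -0.08, 0.12 and -0.22. Nfe2l2, Gstm5, Txndc5 and Txndc11 had 0.12, 0.25, -0.38 and -0.08. Known NRF2 targets such as Nqo1 and Hmox1 can be driven by elements farther away than the searched windows reach.

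Partner genes of these systems were examined as 6 lists, and none of their genes passed the adjusted threshold. Of all genes tested 60.3% were above 0 (51.2% and 50.6% under median-of-ratios and upper-quartile scaling), with a median of 0.08. PND1 replicate 2 had the lowest sum for the cysteine (359 FPKM), glutaredoxin (264 FPKM), NADPH (894 FPKM) and NRF2 (2255 FPKM) lists. Its sum was the highest for disulfide formation (826 FPKM). The part of that library in the counts below was not tested. Cysteine supply and glutathione turnover had 10 of 11 tested genes above 0 (9 under upper-quartile scaling), with a median of 0.32. Cth, which makes cysteine by transsulfuration, had 4.50, 0.941, 5.41 and 4.52 FPKM at PND1 and 6.74, 9.14, 6.54 and 9.84 FPKM at PND4. The ages did not overlap (log2 difference 1.02, limma, adjusted p = 0.805, unadjusted p = 0.0234), where 3.16% of all genes were higher without overlap. Of the 11 genes, Cth alone had an unadjusted p under 0.05, where 4.06% of all genes were higher at such a p. Esd, an esterase that releases glutathione from its formyl conjugate, was the most abundant, at 227 ± 44.3 and 283 ± 50.2 FPKM. Abcc1, an exporter of glutathione conjugates, had 25.1 ± 3.90 and 32.0 ± 4.90 FPKM (limma, adjusted p = 0.805, unadjusted p = 0.0689).

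Glutaredoxins and enzymes that repair oxidised proteins had 9 of 13 genes above 0 (7 under either other scaling), with a median of 0.11, and 3 of them were higher at an unadjusted p under 0.05 in limma, where 4.06% of all genes were. Glrx3, a glutaredoxin of iron-sulfur cluster handling, had 78.2 ± 6.02 and 101.5 ± 11.2 FPKM (limma, adjusted p = 0.740, unadjusted p = 0.0102). Msrb3, a methionine sulfoxide reductase, had 28.7 ± 5.0 and 39.3 ± 3.89 FPKM without overlap (limma, adjusted p = 0.752, unadjusted p = 0.0156). Glrx2 was low, at 0.568 ± 0.296 and 1.90 ± 0.415 FPKM, also without overlap (limma, adjusted p = 0.805, unadjusted p = 0.0481). Of all genes, 3.16% were higher without overlap. Srxn1, which restores over-oxidised peroxiredoxins, had 96.7 ± 19.0 and 106 ± 45.4 FPKM.

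Enzymes that supply NADPH to both reductases had 12 of 12 tested genes above 0 (10 under either other scaling), with a median of 0.22 and none with an unadjusted p under 0.05. Taldo1 and Pgd, of the pentose phosphate pathway, were the most abundant, at 301 ± 56.4 and 335 ± 40.4 FPKM and at 157 ± 44.0 and 179.9 ± 45.6 FPKM. Nadk, the cytosolic NAD kinase, had the smallest p (unadjusted p = 0.0505, adjusted p = 0.805, limma). NRF2 regulators and other targets had 17 of 19 above 0, with a median of 0.21. Fth1, the ferritin heavy chain, had 1566 ± 385 and 2095 ± 251 FPKM (log2 difference 0.44, limma, adjusted p = 0.805, unadjusted p = 0.0222). It was the 1 gene of the list with an unadjusted p under 0.05, where 4.06% of all genes were higher. Blvra had 5.84 ± 0.996 and 8.90 ± 2.36 FPKM without overlap (limma, adjusted p = 0.805, unadjusted p = 0.0661). Of all genes, 3.16% were higher without overlap.

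Selenoproteins and the genes that make them had 12 of 17 above 0 (10 under either other scaling), with a median of 0.20. Selenow, a small selenoprotein, had 38.0 ± 15.9 and 54.1 ± 6.29 FPKM (limma, adjusted p = 0.805, unadjusted p = 0.0476). Sephs2, which makes the selenium donor, had 27.0 ± 1.31 and 33.6 ± 5.41 FPKM (limma, adjusted p = 0.805, unadjusted p = 0.0696). Its ages did not overlap, where 3.16% of all genes were higher without overlap. Enzymes of disulfide formation in the endoplasmic reticulum had 6 of 16 above 0 and a median of -0.04, with 0 genes at an unadjusted p under 0.05 in limma. Their most abundant genes, P4hb and Pdia3, had 209 ± 33.5 and 199 ± 16.5 FPKM and 151 ± 18.9 and 139 ± 11.9 FPKM.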

How the data were processed

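Granulosa-cell RNA was taken up with a micro-scale kit and made into Illumina libraries, per the labels' protocols. Trim Galore, HISAT2 and the build GRCm38 are named in the submitters' processing notes. FPKM values were deposited by the authors for 8 libraries, 4 per age, per the file headers. The sources used here do not give their program, annotation, strand setting or filter. Another table deposited by the authors holds for each gene a fold (the ratio PND1/PND4, a direction taken from its values), the log2 of that fold, and p-values and q-values from an unnamed test.

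FPKM are not counts, so the test planned for such values was used: limma 3.58.1 in R 4.3.3 on log2(FPKM + 1), PND4 minus PND1, with limma's trend in the prior variance and without a block. Genes that reached 1 FPKM in 4 or more libraries were tested, 10756 of 11783, with Benjamini-Hochberg adjustment over all of them and a threshold of 0.05. The step was tested on simulated data. Low values of 2471 genes with 1 annotated transcript were searched for multiples of 1 read. The best unit put 24.9% to 28.8% of them within 0.1 of a multiple, where 20% would fall by chance at a fixed unit, so reads were not recovered and depth is unknown.

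Every member is named. Values in every library are given for the most abundant member of each family, the 10 members with the smallest p, and Gclc, Gclm, Gss, Gsr, Sod1, Cat, Nqo1, Hmox1, Nfe2l2, Gpx1, Gpx4, Prdx1, Prdx2, Txn1, Txnrd1 and Txnip. Members shown by library beyond this rule (Gstp2, Prdx6, Txndc5) and the partner Cth's library values were picked with the values in view. The members, the 7 marker lists and the 6 partner lists were chosen with earlier results of these data known. Alternatives were median-of-ratios and upper-quartile scaling, rescaling without mitochondrial genes, a pseudocount of 0.1 or 5, no filter or a mean of 5 FPKM, robust variance, the replicate block and leaving out each library. Leaving out both libraries numbered 1, with and without PND1 replicate 2, was added after the data were seen. Positions and coding sequences came from GENCODE M21, in which all 54 members were found, and promoters from RefSeq (GRCm38.p6). Figures were drawn with matplotlib 3.10.9.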

Additional observations from a re-analysis of the deposited data

Results flagged for a closer look

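In 8 of 108 groups of 4 libraries (each of the 54 genes at each age), 1 library lay far from the other 3, and chance alone gives about 1 in 20 groups. Of the 8, 4 were in PND1 replicate 1, 2 in PND4 replicate 1 and 2 in PND4 replicate 2. In PND1 replicate 1, Gpx8 was low at 56.1 FPKM, against 97.5 to 104 FPKM in the other PND1 libraries. In the same library Gss was high at 19.0 FPKM (others 11.5 to 12.4 FPKM) and Prdx3 was high at 71.7 FPKM (others 54.7 to 55.8 FPKM). Gstt2 was listed there at 0 FPKM (others 0.445 to 0.469 FPKM). In PND4 replicate 1, Gstt2 was high at 3.88 FPKM (others 0 to 0.240 FPKM) and Gstm4 was low at 1.17 FPKM (others 2.30 to 2.47 FPKM). In PND4 replicate 2, Txnip was high at 51.4 FPKM (others 9.52 to 15.4 FPKM) and Gstz1 was low at 2.95 FPKM (others 8.59 to 8.80 FPKM).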

How the results depend on the processing

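In each of 19 alternatives 0 antioxidant genes passed the adjusted threshold, and over all genes 1 gene was called, except 0 without both libraries numbered 1 and PND1 replicate 2. The genes' median difference lay between 0.09 (without PND1 replicate 2) and 0.29 (without PND4 replicate 1). Median-of-ratios and upper-quartile scaling shifted the median of all genes from 0.08 to 0.0085 and 0.0048, and the antioxidant median to 0.14 and 0.13. Of all genes with an unadjusted p under 0.05, 437 were higher and 198 lower as reported, 242 and 322 under median-of-ratios scaling and 221 and 322 under upper-quartile scaling. Prdx1 and Gstp1 did not have an unadjusted p under 0.05 under either scaling. Read depth is unknown, so counting error cannot be separated from other spread. The labels give both ages the replicate numbers 1 to 4. Deviations of same-numbered libraries correlated at 0.046, -0.009, 0.032 and 0.124, and 2 of 8 libraries correlated best with their own number. Such correlations, from 4 libraries per age, cannot settle whether the numbers pair the samples. With the replicate block the antioxidant median was 0.21, 6 of the genes were higher and 2 lower at an unadjusted p under 0.05, and 687 genes in all had such a p, against 635 without it. The sign held in every alternative for 26 of the 52 genes (23 higher, 3 lower), and 66 of 982 values turned; the cause was not tested. Leaving out 1 library at a time gave ranges across 0 for Nqo1 (-0.068 to 0.33), Gsta1 (-0.94 to 0.55), Gsta2 (-0.83 to 0.92), Gpx1 (-0.81 to 0.34), Gpx4 (-0.15 to 0.13), Gpx7 (-0.20 to 0.17), Gss (-0.17 to 0.27), Mgst3 (-0.47 to 0.29), Gstm1 (-0.23 to 0.14), Gstm3 (-0.0048 to 0.77), Gstm4 (-0.37 to 0.037), Gstm6 (-0.13 to 0.57), Prdx5 (-0.12 to 0.15), Gstp2 (-1.66 to 0.22), Txn2 (-0.13 to 0.31), Txnrd1 (-0.21 to 0.10), Txndc11 (-0.34 to 0.31), Txndc12 (-0.041 to 0.19), Txndc17 (-0.040 to 0.21) and Txnl4b (-0.094 to 0.64). For the other 32 genes the sign held without each library in turn, but for 24 of them the value moved by over 1.5 times. Without both libraries numbered 1, the sign turned for Gsta1 (0.86), Gss (0.44), Mgst3 (0.25), Gstm1 (0.14), Gstm3 (-0.086), Prdx3 (0.036), Prdx4 (-0.0035), Txnrd1 (0.18), Txndc11 (0.14) and Txndc15 (0.099). With PND1 replicate 2 left out as well, it turned for Gsta1 (0.18), Gpx7 (0.048), Gss (0.42), Mgst3 (0.54), Gstm2 (-0.042), Gstm3 (-0.15), Gstz1 (-0.045), Prdx3 (0.031), Txnrd1 (0.13), Txndc11 (0.24), Txndc15 (0.33), Txndc17 (-0.15), Txndc5 (0.24) and Txnl4b (-0.16). With a pseudocount of 5 it turned for Gsta2 (-0.028), and median-of-ratios and upper-quartile scaling turned Prdx5 (-0.055 and -0.060), Txn2 (-0.016 and -0.021) and Txndc12 (-0.013 and -0.018).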
